A study of Mus musculus with 4 samples.

Results

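The 10 genes described here are human genes of the granules, receptors and identity of basophils and mast cells. They are the tryptases TPSAB1 and TPSB2, the mast cell carboxypeptidase CPA3, the histamine-forming enzyme HDC, the IgE receptor subunits FCER1A and MS4A2, the transcription factor GATA2, the serine protease CTSG (cathepsin G), the tetraspanning membrane protein MS4A3 and the cobalamin-binding granule protein TCN1. They were chosen by name and not by a threshold, with earlier results of these data known. All 10 were present in the files, and they are 10 of the 33538 human genes counted. Basophils and mast cells carry FcεRI, the high-affinity receptor for IgE, and release histamine, proteases and lipid mediators when bound IgE is cross-linked. Mast cells reside in tissues, depend on KIT, the receptor for stem cell factor, and store tryptase, carboxypeptidase A3 and often chymase (CMA1), whereas basophils circulate, respond to interleukin-3 and express CLC and the eotaxin receptor CCR3. CTSG, MS4A3 and TCN1 are also known from neutrophils and their bone marrow precursors, so that their presence alone does not name a cell.

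All groups were huNSG-SGM3 mice, an immunodeficient strain that carries NOD.Cg-Prkdcscid and IL2rgtm1Wjl together with the transgenes Tg(CMV-IL3,CSF2,KITLG)1Eav/MloySzJ and was engrafted with human cord blood CD34+ stem cells. In every group, controls included, a CMV promoter drove human IL3, CSF2 and KITLG, and the products of IL3 and KITLG are growth factors of basophils and mast cells. Human CD45+ cells were sorted by flow cytometry and profiled by 3' scRNAseq. Reads were collapsed by unique molecular identifier (UMI), and a value is thus a number of captured molecules. There were 4 libraries, 1 each from the blood of naïve mice without treatment, the blood of sham mice with a T9 laminectomy, the blood of mice with a T9 spinal cord injury (SCI) and the injured spinal cord (SCI cord). Operated mice were sampled 7 days after surgery. The labels give an age of 15 weeks throughout, whereas the study counts the same 15 weeks from engraftment, done days after birth, to surgery. By that timeline, mice sampled 7 days after surgery were older than the labels give. The labels give male hosts for naïve and sham blood, and pooled male and female hosts for both SCI libraries, so that host sex and injury cannot be told apart. Cells were pooled from different animals and each condition is 1 library, so no test between conditions was possible. All intervals below are 95% intervals and cover counting error only.

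Barcodes with over 50% of their UMIs on human genes were taken as human cells. There were 6713 in naïve, 4972 in sham, 6283 in SCI blood and 138 in SCI cord, with medians of 3656, 5201, 4634 and 8570 human UMIs. PTPRC, which encodes the sorted antigen CD45, had a UMI in 89.1% to 97.8% of human barcodes per library, yet 93 to 1990 barcodes per library were mostly mouse. Human barcode sequences found in more than 1 library numbered 22, and none of them was a granule-gene cell, as defined below, in more than 1 library. Levels are given as CPM (UMIs of a gene per 1e6 human UMIs), with ribosomal and mitochondrial genes left out of the total. A count of 0 allows up to 0.130 to 0.137 CPM in the blood libraries and 2.73 CPM in SCI cord, which held the fewest cells. Levels were not compared between genes, since 3' counts depend on each gene's capture.

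Every granule gene was lowest in naïve blood and highest in SCI cord, with sham blood and SCI blood between them. TPSAB1 was at 14.4 CPM (Poisson interval 12.9 to 16.0) in naïve blood, against 65.3 (61.9 to 68.7) in sham and 50.7 (47.8 to 53.7) in SCI blood, and at 813 (761 to 868) in SCI cord. TPSB2 was at 8.86 CPM (7.69 to 10.2), 31.8 (29.5 to 34.2), 31.5 (29.3 to 33.9) and 420 (383 to 460) in the same order, so that sham and SCI blood could not be ordered. The tryptases are near-identical paralogs and reads can be split between them, so their separate levels are uncertain and their UMIs are also given as a sum. TPSAB1 took 61.9%, 67.2%, 61.7% and 65.9% of that sum, with the libraries ordered as before. CPA3, which is stored with tryptase in mast cell granules, was at 12.1 CPM (10.7 to 13.6) in naïve blood and 515 (473 to 559) in SCI cord, with 45.2 (42.4 to 48.1) in sham and 24.0 (22.0 to 26.1) in SCI blood. For CPA3, unlike TPSB2, the intervals of sham and SCI blood were well apart.

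CTSG had a level of 17.0 CPM (15.4 to 18.8) in naïve blood and 760 (710 to 814) in SCI cord, with 81.8 (78.0 to 85.7) in sham and 61.9 (58.7 to 65.2) in SCI blood. HDC, the enzyme that makes histamine from histidine, was at 28.5 CPM (26.4 to 30.8) in naïve blood, 62.1 (58.9 to 65.5) in sham blood, with 45.9 (43.2 to 48.8) in SCI blood, with 207 (181 to 236) in SCI cord. Both followed the order seen for TPSAB1, and no 2 of their intervals overlapped. MS4A2, the signal-amplifying beta subunit of FcεRI, was at 46.0 CPM (43.3 to 48.8), 115 (110 to 119), 77.9 (74.3 to 81.6) and 459 (420 to 501). FCER1A, the IgE-binding alpha subunit, was at 25.8 CPM (23.7 to 27.9) in naïve and 34.5 (32.2 to 37.0) in SCI blood, against 63.6 (60.3 to 67.0) in sham blood and 239 (211 to 270) in SCI cord. The receptor subunits thus shared the order, with the smallest step between naïve and SCI blood for FCER1A.

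GATA2, required for both lineages, was at 18.5 CPM (16.8 to 20.4), 43.1 (40.4 to 45.9), 32.9 (30.6 to 35.3) and 133 (112 to 156) across naïve, sham and SCI blood, then SCI cord. MS4A3 was at 17.8 CPM (16.1 to 19.6), 40.1 (37.5 to 42.8), 31.7 (29.5 to 34.1) and 95.5 (78.1 to 116). TCN1 was at 51.4 CPM (48.5 to 54.4), 120 (115 to 124), 77.9 (74.3 to 81.6) and 277 (247 to 310). All 3 kept the same order of libraries, with the narrowest range from naïve blood to SCI cord for MS4A3 and TCN1.

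**Figure D1:**
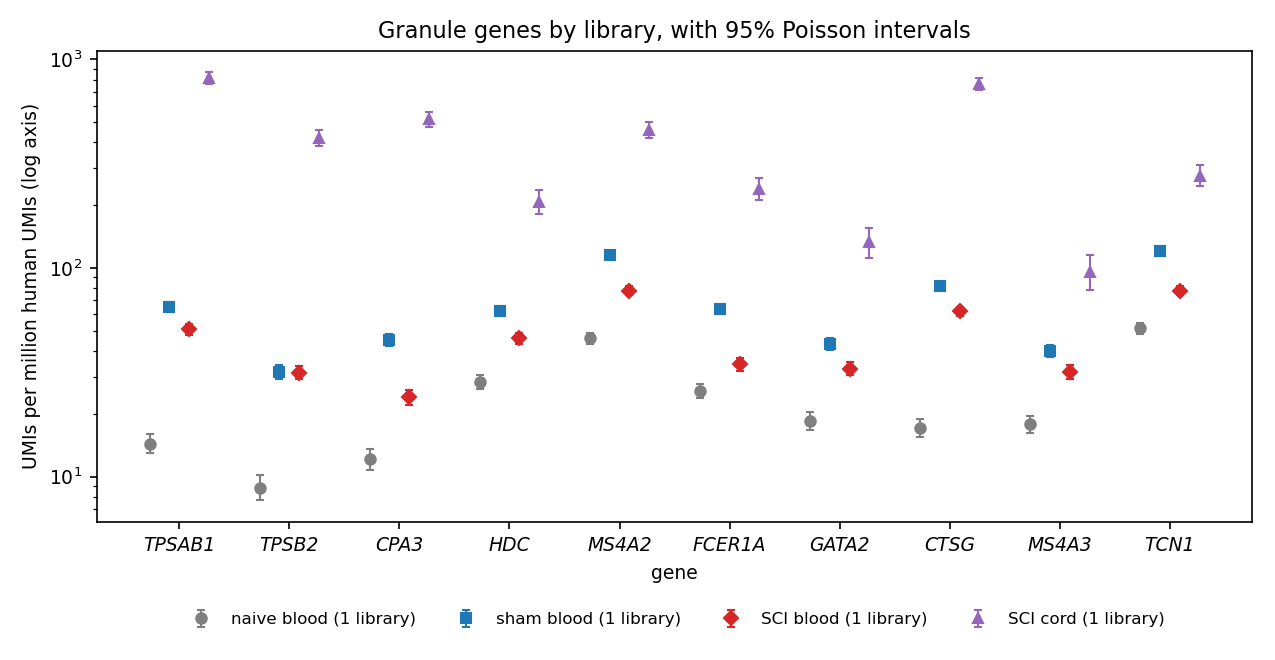
Levels of the 10 granule genes in each of the 4 libraries, as CPM on a log axis, with 95% Poisson intervals that cover counting error only. SCI cord (triangles) lies above the blood libraries for every gene and naïve blood (circles) below them, while TPSB2 is at 31.8 in sham and 31.5 in SCI blood.

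Sham blood was compared with naïve blood to show what the operation without injury goes with. All 10 genes were higher in sham blood by a log2 ratio of at least 1, where 2.14% of the 14672 genes compared were higher and 2.77% lower by that much. The largest log2 ratios were those of CTSG at 2.27 (2.11 to 2.43), TPSAB1 at 2.18 (2.01 to 2.36), CPA3 at 1.90 (1.71 to 2.10) and TPSB2 at 1.84 (1.62 to 2.07). The smallest was that of HDC at 1.12 (0.99 to 1.26). In naïve blood 5 barcodes per gene held 62.5% of the TPSAB1 and 60.8% of the CTSG UMIs. Without the 5 barcodes of each library with most UMIs of the 10 genes, TPSAB1 was at 3.08 and CTSG at 2.74. These values lie outside the counting intervals above, and all 10 genes stayed past 1. The median over the 10 genes was 1.31, against 0.06 over all genes. As a mean of per-cell CPM, which weighs shallow and deep cells alike, the median was 1.07 and 5 of the 10 genes were past a log2 ratio of 1, namely TPSAB1, TPSB2, CPA3, CTSG and MS4A3. Of the markers of other cells, 4 of 4 plasma cell genes were lower in sham blood by at least 1, with a median of -4.81, and 0 of 8 monocyte genes were past it, and their part in the result was not tested.

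SCI blood against naïve blood showed a split among the genes. TPSB2 at 1.83 (1.60 to 2.06), TPSAB1 at 1.82 (1.64 to 2.00) and CTSG at 1.86 (1.70 to 2.03) were higher by a log2 ratio of at least 1, and 3.31% of the 14698 genes compared were higher and 4.50% lower by that much. The other 7 genes lay between 0.42 (0.27 to 0.58) for FCER1A and 0.99 (0.78 to 1.20) for CPA3. The median of the 10 was 0.83, and 0.58 as a mean of per-cell CPM. Markers of other cells also differed in this comparison. All 8 of 8 monocyte genes (median -2.65) and 4 of 4 plasma cell genes (median -4.27) were lower in SCI blood by at least 1, and both of 2 NK cell genes were higher (median 2.19), and their part in the result was not tested.

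SCI blood against sham blood showed no gene of the 10 past a log2 ratio of 1 in either direction, where 1.86% of the 14648 genes compared were higher and 3.41% lower. The lowest were CPA3 at -0.91 (-1.07 to -0.76) and FCER1A at -0.88 (-1.01 to -0.75), and TPSB2 at -0.01 (-0.16 to 0.14) was not distinguishable from 0. CPA3 was lower by more than 1 under 4 of 8 alternatives, at -1.01 with ribosomal and mitochondrial genes in the total, -1.05 as a mean of per-cell CPM, -1.04 with doublets and outlying cells removed and -1.03 without the 5 barcodes richest in the 10 genes. The remaining 7 lay between -0.62 for TCN1 and -0.34 for MS4A3. The naïve, sham and SCI blood libraries are each used in 2 of the comparisons within blood. SCI blood is used again against SCI cord, so the comparisons are not independent of each other.

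SCI cord was compared with SCI blood, the circulating cells of the same condition. By the study's methods, cord tissue was also digested with enzymes and its CD45+ cells enriched with magnetic beads before the sort. Blood was not, so tissue and cell isolation cannot be told apart in this comparison. All 10 genes were higher in SCI cord by a log2 ratio of at least 1, where 13.9% of the 13517 genes compared were higher and 9.30% lower. CPA3 had a log2 ratio of 4.42 (4.25 to 4.59), TPSAB1 of 4.00 (3.88 to 4.13), TPSB2 of 3.74 (3.57 to 3.91) and CTSG of 3.62 (3.49 to 3.74). The ratios of the other 6 were smaller, from 1.60 (1.28 to 1.89) for MS4A3 to 2.79 (2.59 to 3.00) for FCER1A. Few cells carried these counts, because 5 barcodes per gene held 75.2% of the TPSAB1 UMIs, 76.4% of the CTSG UMIs and 93.3% of the MS4A3 UMIs in SCI cord. Without the 5 barcodes of each library that had most UMIs of the 10 genes, the median was 1.70 in place of 2.68 and 8 of 10 genes were past 1, with MS4A3 at 0.65 and TCN1 at 0.23. Markers of other cells were also higher in SCI cord, namely 8 of 8 monocyte genes (median 4.64), 5 of 5 eosinophil genes (median 4.74) and 5 of 5 conventional dendritic cell genes (median 2.79), and their part in the result was not tested.

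**Figure D2:**
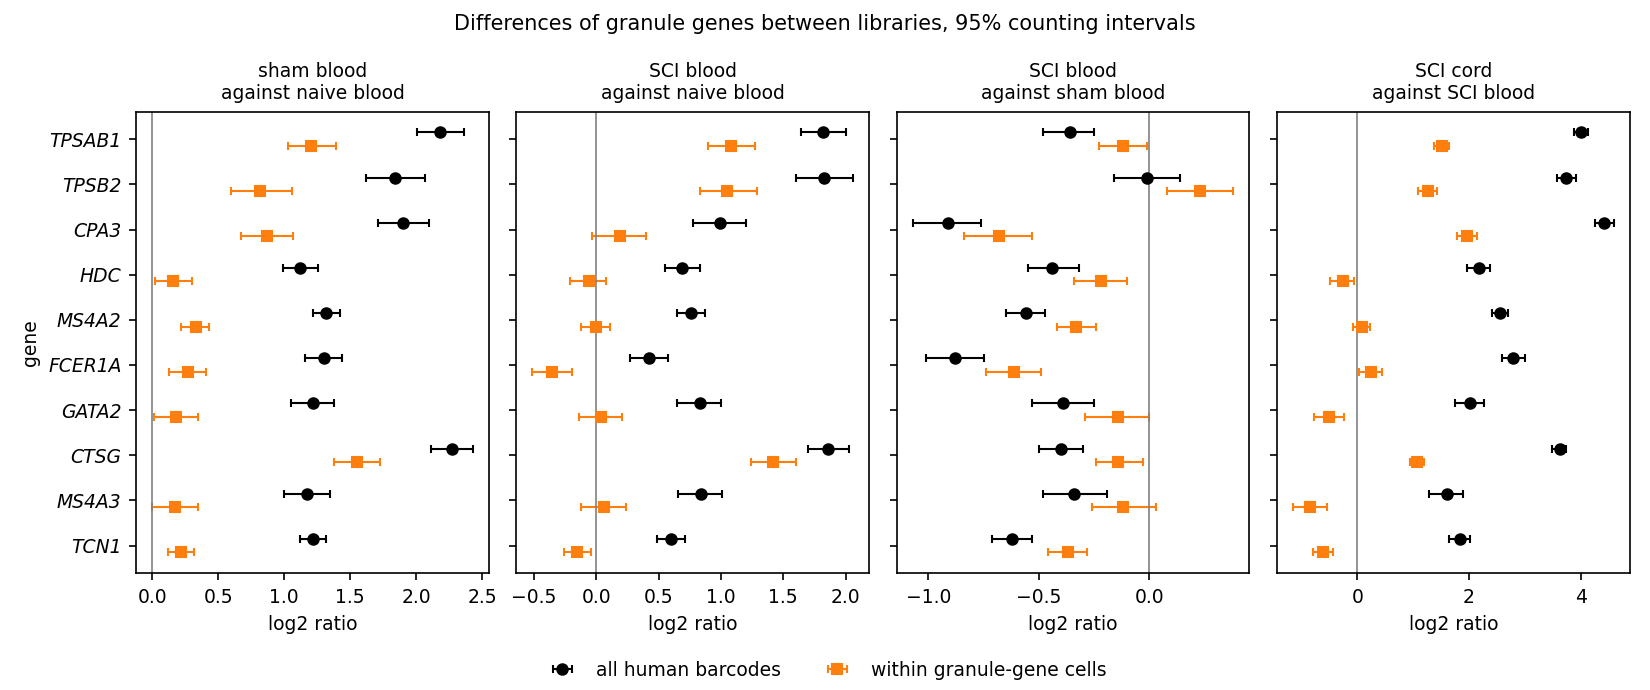
Log2 ratios of the 10 granule genes in the 4 comparisons, over all human barcodes (black circles) and within granule-gene cells alone (orange squares), with 95% counting intervals. The x axes differ between panels. Within granule-gene cells, TPSAB1, TPSB2 and CTSG stay 0.82 or more above naïve blood in sham and SCI blood while HDC lies at 0.16 and -0.06 and GATA2 at 0.18 and 0.04. CPA3, HDC, MS4A2, FCER1A and GATA2 chose these cells, so their levels within them are in part given by the choice.

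The genes were then followed cell by cell. A human barcode was called a granule-gene cell when at least 3 of the 5 genes known from both lineages (CPA3, HDC, MS4A2, FCER1A and GATA2) had at least 2 UMIs each, which left TPSAB1, TPSB2, CTSG, MS4A3 and TCN1 free to vary. Such cells made up 94 of 6713 human barcodes in naïve blood (1.40%, exact binomial interval 1.13 to 1.71), against 125 of 4972 in sham (2.51%, 2.10 to 2.99) and 135 of 6283 in SCI blood (2.15%, 1.80 to 2.54), and 18 of 138 in SCI cord (13.0%, 7.92 to 19.8). Few barcodes lay just outside the rule, as 11, 2, 9 and 0 further barcodes had exactly 2 of the 5 genes, while 29, 9, 27 and 2 of the granule-gene cells had exactly 3. Thinned to 1000 UMIs per cell, the shares were 0.608% (0.435 to 0.827), 1.28% (0.983 to 1.63), 0.593% (0.418 to 0.817) and 3.88% (1.27 to 8.81). With this rule the thinned share in SCI blood was not above that in naïve blood, whereas those in sham blood and SCI cord were. Thinning also removes UMIs of the 5 defining genes, so these shares depend on their level per cell too. With a gene counted from 1 UMI at full depth, the shares were 1.53% (1.25 to 1.86) in naïve and 2.28% (1.92 to 2.68) in SCI blood.

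Doublets were marked and kept. Of the 372 granule-gene cells, 38 were marked as doublets, 25 carried T cell UMIs (at least 3 over CD3D, CD3E, CD3G and TRAC) and 9 carried B cell UMIs (at least 3 over CD79A and MS4A1). The marks fell on 11 of 94, 12 of 125 and 15 of 135 granule-gene cells of naïve, sham and SCI blood. Among all human barcodes they fell on 436 of 6713, 276 of 4972 and 377 of 6283, a smaller share in each library. In SCI cord the rule allowed 0 marks among 138 barcodes, so its 18 granule-gene cells could not be marked. The granule-gene cells held nearly all the RNA of these genes, from 92.3% to 100% of the UMIs of each gene in each library, with the exception of CTSG in naïve blood at 76.3%. By contrast, TPSAB1 had a UMI in 0.0715% to 0.118% of T cells in the blood libraries, against 0.402% to 1.31% of all human barcodes, at median depths of 3548 to 5067 and 3656 to 5201 UMIs. The T cell shares of TCN1 were 0.262% to 0.561% and those of MS4A2 0.274% to 0.413%, the upper end of the 10 genes. In mouse barcodes of blood the share with a UMI was at most 0.325% for any of the 10 genes. For each gene, the share among all human barcodes of a blood library lay above the share among that library's T cells and mouse barcodes, the cells that should lack it.

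Outside the granule-gene cells, CTSG and TCN1 were the genes most often present with 2 or more UMIs. Of 31 such barcodes with CTSG in blood, 25 carried at least 2 monocyte markers and 1 at least 2 markers of neutrophils and their precursors, and in SCI cord all 7 of 7 carried monocyte markers. A barcode could carry several lists, and 10 of the 31 also carried T cell markers. Of 29 such barcodes with TCN1 in blood, 10 carried T cell, 6 monocyte and 2 neutrophil markers. FCER1A, which dendritic cells can also express, was present outside granule-gene cells in only 4 blood barcodes, none of which carried the dendritic cell markers.

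Tryptase divided the granule-gene cells. With a cell called tryptase-positive from 2 UMIs over TPSAB1 and TPSB2, 26 of 94 granule-gene cells were positive in naïve blood (27.7%, 18.9 to 37.8), against 63 of 125 in sham (50.4%, 41.3 to 59.5) and 57 of 135 in SCI blood (42.2%, 33.8 to 51.0), and 15 of 18 in SCI cord (83.3%, 58.6 to 96.4). The intervals of naïve and sham blood did not overlap, nor did those of SCI blood and SCI cord, whereas SCI blood overlapped both naïve and sham blood. Thinned to 1000 UMIs per cell, the shares were 27.5% (14.6 to 43.9), 42.9% (30.5 to 56.0) and 40.5% (24.8 to 57.9) in naïve, sham and SCI blood, with overlapping intervals on fewer cells. In SCI cord 5 cells remained after thinning and all were positive.

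Counted per human barcode, the intervals of the tryptase-negative cells overlapped across blood. They were 68 cells in naïve blood (1.01%, 0.787 to 1.28), 62 in sham blood (1.25%, 0.957 to 1.60), then 78 in SCI blood (1.24%, 0.983 to 1.55). The log2 ratio to naïve blood was 0.30 (-0.22 to 0.82) for sham and 0.29 (-0.19 to 0.78) for SCI blood. The tryptase-positive cells were 0.387% (0.253 to 0.567) of human barcodes in naïve blood and 10.9% (6.21 to 17.3) in SCI cord, with 1.27% (0.975 to 1.62) in sham and 0.907% (0.688 to 1.17) in SCI blood. Their log2 ratio to naïve blood was 1.71 (1.03 to 2.43) for sham and 1.23 (0.53 to 1.96) for SCI blood, and that of SCI cord to SCI blood was 3.58 (2.66 to 4.42). SCI against sham blood gave -0.48 (-1.02 to 0.06), within counting error of 0.

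These shares were read again at equal depth, an alternative chosen after seeing the data. The rule for a granule-gene cell was kept, so the thinned shares also depend on the level of its 5 genes per cell. Thinned to 1000 UMIs per cell, tryptase-positive cells were 11 of 6581 barcodes in naïve blood (0.167%, 0.0835 to 0.299), 27 of 4934 in sham blood (0.547%, 0.361 to 0.795), then 15 of 6238 in SCI blood (0.240%, 0.135 to 0.396) and 5 of 129 in SCI cord (3.88%, 1.27 to 8.81). The log2 ratio of sham to naïve blood was 1.71 (0.65 to 2.87) and that of SCI cord to SCI blood 4.01 (2.20 to 5.54), so both stayed above 0. SCI against naïve blood was at 0.52 (-0.70 to 1.79), no longer distinguishable from 0, and SCI against sham blood at -1.19 (-2.20 to -0.22). Tryptase-negative cells were at 0.441% (0.295 to 0.632), 0.730% (0.512 to 1.01) and 0.353% (0.221 to 0.533) in naïve, sham and SCI blood, with a ratio of SCI to sham blood of -1.05 (-1.88 to -0.24). In SCI cord 0 of 129 were tryptase-negative, which allows up to 2.82%.

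**Figure D3:**
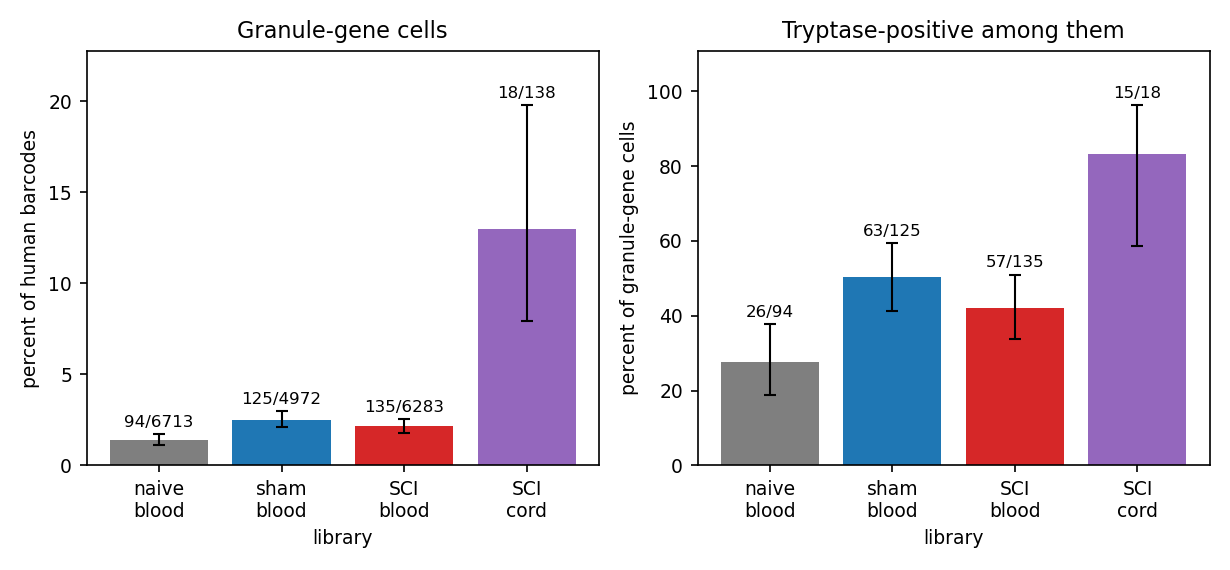
Left, granule-gene cells as a percent of human barcodes in each library. Right, tryptase-positive cells as a percent of granule-gene cells. Bars start at 0, error bars are 95% exact binomial intervals and the numbers above the bars are cells over the total. The share of granule-gene cells is 13.0% in SCI cord against 1.40% to 2.51% in blood, and the tryptase-positive share runs from 27.7% in naïve blood to 83.3% in SCI cord.

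Among granule-gene cells, CTSG was found almost wholly in those with tryptase. Over the 354 granule-gene cells of blood, 101 of 146 tryptase-positive cells (69.2%) and 2 of 208 tryptase-negative cells (0.962%) had at least 2 CTSG UMIs. By library, the share among tryptase-positive cells was 57.7% in naïve blood, 77.8% in sham blood, with 64.9% in SCI blood, against 86.7% (13 of 15) in SCI cord. Among tryptase-negative cells, CTSG was in 0 of 68 in naïve blood, 1 of 62 in sham blood, then 1 of 78 in SCI blood and 0 of 3 in SCI cord, and the 0 of naïve blood allows a share of up to 5.28%. Without marked doublets and cells with T or B cell UMIs the shares in blood were 66.7% and 0% (0 of 176, which allows up to 2.07%), an alternative chosen after seeing the data. Positive cells had median depths of 3436 to 5821 UMIs and negative cells 3176 to 4706 in blood, and after thinning the shares with a CTSG UMI were 48.0% to 74.6% against 0% to 3.23%.

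CTSG also followed the amount of tryptase. Cells of blood with 0 tryptase UMIs had CTSG in 0.575% (1 of 174), cells with 1 in 2.94%, cells with 2 to 4 in 11.1%, cells with 5 to 19 in 59.0% and cells with 20 to 99 in 93.5% (72 of 77). Most other genes of neutrophils and their precursors were at 0. ELANE, PRTN3, MPO and AZU1, the other classical proteins of azurophil granules, had 0 UMIs in all granule-gene cells of all 4 libraries, tryptase-positive or not, as did LTF, LCN2, DEFA3, DEFA4, CEACAM8 and FCGR3B. The antimicrobial peptide gene CAMP was present, with 7, 32 and 9 UMIs in tryptase-positive and 13, 28 and 15 in tryptase-negative cells of naïve, sham and SCI blood. CXCR2 had 3, 5 and 0 UMIs in those tryptase-positive cells, and CTSG shared 61 blood cells with MS4A3 and 49 with TCN1.

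MS4A3 and TCN1 ran the other way but did not exclude tryptase. In blood TCN1 was present in 96.6% of tryptase-negative and 61.6% of tryptase-positive cells, and MS4A3 in 88.5% and 65.1%. Per library, TCN1 was in 94.1%, 100% and 96.2% of negative cells and in 69.2%, 65.1% and 54.4% of positive cells in naïve, sham and SCI blood. In SCI cord, 5 of 15 tryptase-positive cells had TCN1 and 4 of 15 had MS4A3, and all 3 tryptase-negative cells had TCN1. Of the 146 tryptase-positive cells of blood, 109 (74.7%) had MS4A3 or TCN1 and 76 (52.1%) had both, so that most carried genes from both sides. Among the 80 with at least 20 tryptase UMIs, 36 still had both.

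The cells that carried tryptase together with MS4A3 and TCN1 were then read for doublet marks and depth, with no test of the differences. Of these 76 blood cells, 4 were marked as doublets (5.26%), against 27 of 204 cells with MS4A3 or TCN1 and no tryptase (13.2%) and 5 of 37 with tryptase and neither of the other genes (13.5%). Their median depth was 4834 UMIs, against 3842 and 4464. They had a median of 16.5 tryptase and 2.00 CTSG UMIs, whereas cells with tryptase and neither MS4A3 nor TCN1 had 38.0 and 26.0. A pair of a tryptase-positive and a tryptase-negative cell in 1 droplet would not be recognised with certainty by the doublet caller, and its part was not tested.

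**Figure D4:**
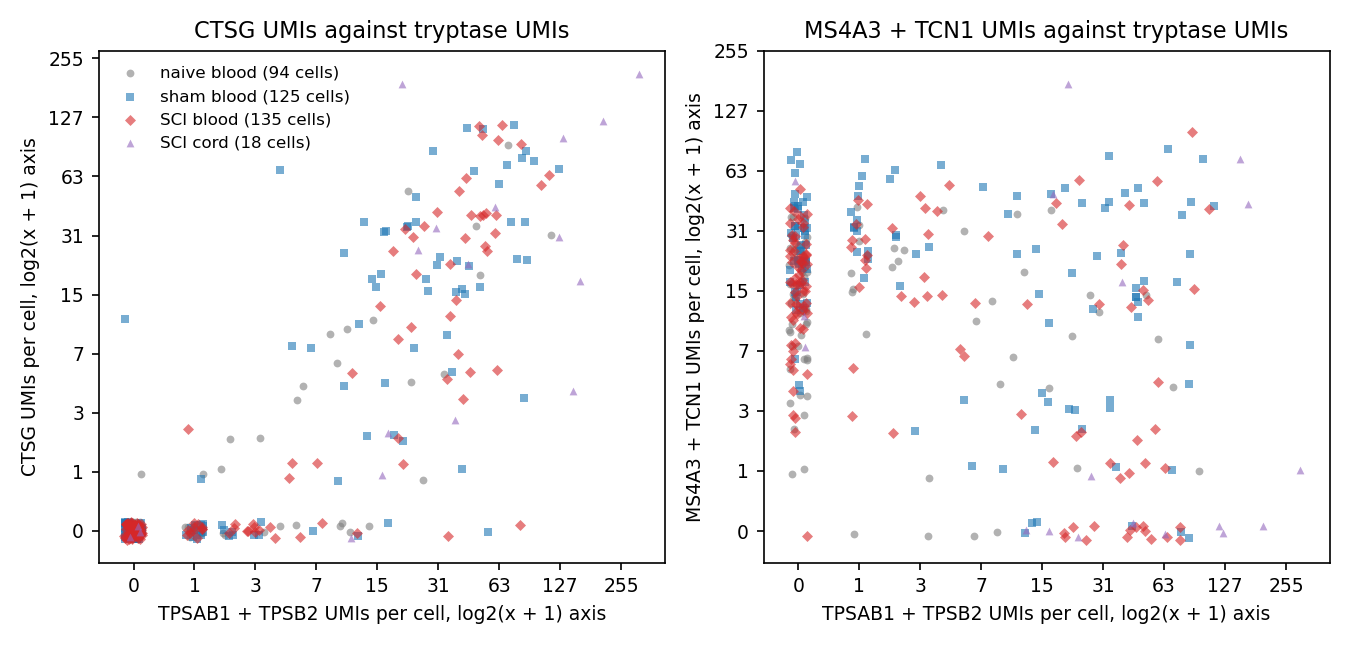
Each point is 1 of the 372 granule-gene cells, with TPSAB1 + TPSB2 UMIs on the x axis and CTSG UMIs (left) or MS4A3 + TCN1 UMIs (right) on the y axis, on log2(x + 1) scales with small random shifts to separate points. CTSG is almost absent from cells without tryptase and climbs with it, whereas cells with at least 20 tryptase UMIs spread from 0 to many MS4A3 + TCN1 UMIs.

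The genes used to define the cells differed less by tryptase, except CPA3. MS4A2 was present in 92.6% to 100% of blood cells at every level of tryptase, and HDC in 89.7% to 100%. CPA3 was present in 28.2% of cells with 0 tryptase UMIs, 73.5% with 1 and 97.4% with 20 to 99. It was thus in 87.0% of tryptase-positive and 35.6% of tryptase-negative blood cells, and its log2 ratio between them was 2.76, 1.95 and 2.76 in naïve, sham and SCI blood. These 5 genes chose the cells, so their presence in them is in part given by the choice. Over all 45 pairs of the 10 genes in human blood barcodes, the tightest was MS4A2 with HDC, which shared 344 cells (91.0% of the cells with either gene), and the loosest CTSG with TCN1, which shared 49 (12.1%). MS4A3 and TCN1 shared 267 cells (77.6%), TPSAB1 and TPSB2 115 (77.7%), and TPSAB1 and CTSG 103 (65.6%).

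**Figure D5:**
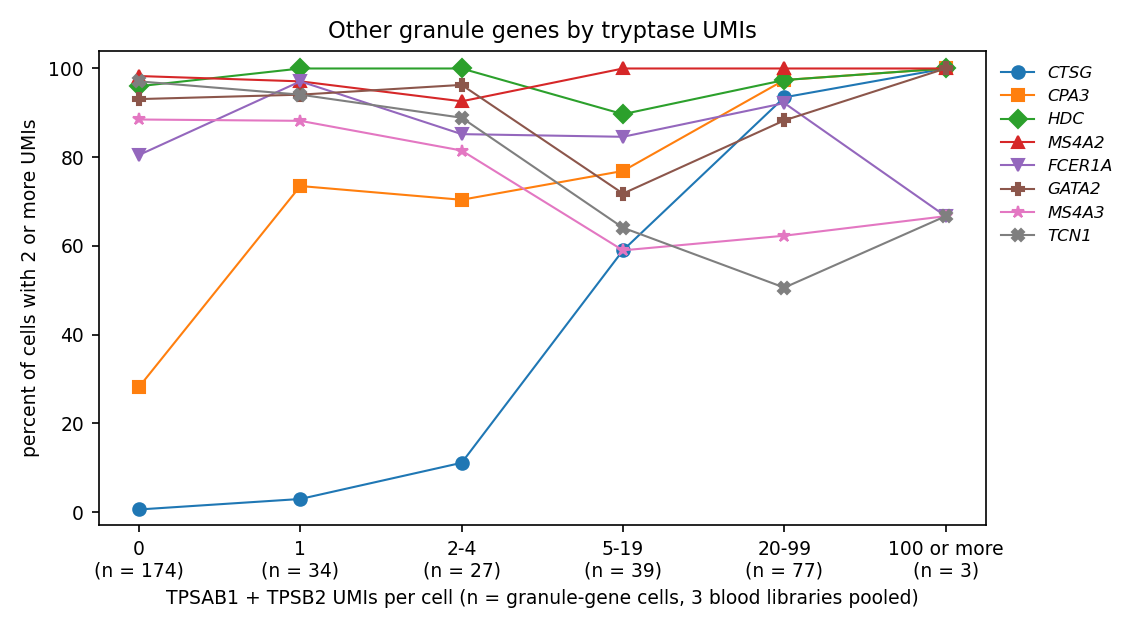
Percent of granule-gene cells of the 3 blood libraries with at least 2 UMIs of each other granule gene (y axis), by the number of TPSAB1 + TPSB2 UMIs in the cell (x axis, with the number of cells under each class). CTSG climbs from 0.575% to 93.5% between 0 and 20 to 99 tryptase UMIs and CPA3 from 28.2% to 97.4%, TCN1 goes from 97.1% to 50.6%, and MS4A2 stays at 92.6% or above. The last class holds 3 cells.

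Other genes of both lineages were read in the same cells. Higher in tryptase-positive than in tryptase-negative cells by a log2 ratio of at least 1 in each of the 3 blood libraries were 8 of 12 mast cell genes tested (KIT, CMA1, TPSG1, HPGDS, SLC18A2, RGS13, LTC4S and CPA3) and none was lower, where 1.94% of 7689 genes were higher and 1.77% lower. The tryptases were left out, as they define the groups. Of 13 basophil genes, CCR3 and the interleukin-3 receptor chain IL3RA were lower, and CPA3, which is on both lists, was higher. CCR3 was present in 63.9% of tryptase-negative and 9.59% of tryptase-positive blood cells. CLC, the Charcot-Leyden crystal protein of basophils and eosinophils, was present in 74.5% and 17.8%, but its level was not past the ratio in all 3 blood libraries.

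KIT was present in 42.5% of tryptase-positive and 12.5% of tryptase-negative blood cells, and CMA1, mast cell chymase, in 24.0% and in 0 of 208, with upper limits of 4.62% to 5.78% in the single blood libraries. In SCI cord, 9 of 15 tryptase-positive cells had KIT, 5 of 15 CMA1 and 0 of 15 CCR3, which allows a share of up to 21.8%. CLC was present in 5 of the 15 (33.3%), against 15.4%, 20.6% and 15.8% of tryptase-positive cells in naïve, sham and SCI blood. MRGPRX2, a receptor of skin and other connective tissue mast cells, had no UMI in any human barcode of the 4 libraries. Of 12 genes for making and storing mediators, 6 were higher in tryptase-positive cells (the monoamine transporter SLC18A2, the leukotriene synthase LTC4S, the prostaglandin synthases HPGDS and PTGS1, the heparin-modifying enzyme NDST2 and CPA3) and none lower. SLC18A2, LTC4S, HPGDS and CPA3 are also on the mast cell list. HPGDS was present in 82.9% against 44.7% of cells. None of the 11 genes of the FcεRI complex and its signalling and none of 9 transcription factors was past the ratio in all 3 libraries, although MITF, a mast cell transcription factor, was present in 28.1% against 6.25% of cells. No T cell, B cell or monocyte marker was past the ratio in all 3 blood libraries. Even so, at least 2 monocyte genes were carried by 11 of 68, 19 of 62 and 5 of 78 tryptase-negative cells of naïve, sham and SCI blood. Among tryptase-positive cells they were carried by 0 of 26, 7 of 63 and 3 of 57. Monocyte genes were not used to leave out cells in any alternative. Of 6 eosinophil genes tested, SIGLEC8, an inhibitory receptor that mast cells also carry, was higher and RNASE2 lower in tryptase-positive cells. At least 2 eosinophil genes were carried by 0 of 26, 5 of 63 and 1 of 57 tryptase-positive cells and by 3 of 68, 10 of 62 and 6 of 78 tryptase-negative cells of naïve, sham and SCI blood, and by 4 of 15 and 1 of 3 in SCI cord. The eosinophil peroxidase EPX had 16 UMIs in tryptase-positive cells of sham blood and 0 in those of the other libraries.

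Because the granule-gene cells differ in number between libraries, levels were also compared within them. In sham against naïve blood, CTSG was higher within the cells by a log2 ratio of 1.55 (1.38 to 1.73), TPSAB1 by 1.20 (1.03 to 1.39), CPA3 by 0.87 (0.67 to 1.07) and TPSB2 by 0.82 (0.60 to 1.06). The other 6 genes differed by 0.16 to 0.33, while the share of UMIs held by the granule-gene cells differed by 1.06. CPA3, HDC, MS4A2, FCER1A and GATA2 chose the cells, so in every comparison within them the levels of these genes are in part given by the choice. In SCI against naïve blood, CTSG at 1.42 (1.24 to 1.60), TPSAB1 at 1.08 (0.90 to 1.27) and TPSB2 at 1.05 (0.83 to 1.29) were again apart from the other genes, which lay between -0.35 for FCER1A and 0.19 for CPA3. SCI against sham blood was lowest for CPA3 at -0.68 (-0.84 to -0.53) and FCER1A at -0.61 (-0.74 to -0.49).

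Within granule-gene cells, SCI cord against SCI blood differed in direction between genes. CPA3 was higher by 1.97 (1.79 to 2.14), TPSAB1 by 1.51 (1.38 to 1.64), TPSB2 by 1.26 (1.09 to 1.43) and CTSG by 1.07 (0.94 to 1.19). MS4A3 was at -0.84 (-1.15 to -0.54), TCN1 at -0.61 (-0.79 to -0.43), GATA2 at -0.50 (-0.78 to -0.24) and MS4A2 at 0.08 (-0.07 to 0.23). These ratios rest on the 18 cells of SCI cord, in which MS4A3 was present in 6 and TCN1 in 8.

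CTSG and CPA3 were also compared among tryptase-positive cells alone. The tryptases themselves were not compared there, because they chose the cells. CTSG was at 3890 CPM in naïve blood, 5063 in sham and 5377 in SCI blood, with log2 ratios to naïve blood of 0.38 (0.20 to 0.56) and 0.46 (0.29 to 0.65), against 1.55 and 1.42 over all granule-gene cells. CPA3 was at 2441, 2383 and 1792 CPM, with ratios of -0.04 (-0.27 to 0.20) and -0.45 (-0.69 to -0.19). In SCI cord against SCI blood, CPA3 differed by 1.30 (1.12 to 1.48) and CTSG by 0.23 (0.10 to 0.36), from 15 cells against 57. Among tryptase-negative cells, CPA3 and FCER1A were lower in SCI than in sham blood, at -1.21 (-1.63 to -0.82) and -0.81. These cells are part of the granule-gene cells compared above, and both genes helped to choose them, so this is not an independent repeat.

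The wider gene lists were read at the level of whole libraries. In sham against naïve blood, 13 of 14 mast cell genes tested were higher by a log2 ratio of at least 1 and none lower (median 1.48), among them CMA1 at 2.42 (1.71 to 3.27), LTC4S at 1.76 (1.35 to 2.20), the interleukin-33 receptor IL1RL1 at 1.45 (1.07 to 1.85) and KIT at 1.40 (1.02 to 1.81). Of 13 basophil genes, 9 were higher (median 1.19), with CLC at 1.19 (1.11 to 1.26), IL4 at 1.81 (1.21 to 2.49), and CCR3 at 0.59 (0.34 to 0.85). In SCI against naïve blood, 9 of 14 mast cell genes (median 1.18) but 0 of 13 basophil genes (median 0.69) were higher, and IL3RA was lower at -1.01 (-1.26 to -0.78). Both lists contain members described above and share MS4A2, CPA3 and GATA2. Over all genes compared, 2.14% were higher by that much in sham than in naïve blood. In SCI against naïve blood 3.31% were higher and 4.50% lower.

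SCI blood against sham blood separated the lists further. Of the basophil genes, 4 of 13 were lower, namely CLC at -1.38 (-1.46 to -1.30), IL3RA at -1.33 (-1.57 to -1.10), CEBPA at -1.15 (-1.43 to -0.88) and IL4 at -1.12 (-1.67 to -0.60), whereas 0 of 14 mast cell genes were past 1 (median -0.21). CEBPA and IL3RA are also expressed by monocytes and dendritic cells, and the monocyte markers were lower in SCI blood (8 of 8, median -2.44), as were 4 of 6 eosinophil genes (median -1.29), whose part was not tested. In SCI cord against SCI blood, 14 of 14 mast cell genes (median 3.28) and 12 of 13 basophil genes (median 2.65) were higher, with LTC4S at 4.65 (4.39 to 4.92), CLC at 4.74 (4.65 to 4.83) and CCR3, the exception, at -0.11 (-1.04 to 0.61). Of the genes for mediators 11 of 13 and of the cytokine receptors 6 of 6 were higher, including CSF2RB, the shared beta chain of the receptors for interleukin-3, interleukin-5 and GM-CSF, at 4.06 (3.86 to 4.26). CLC is also among the eosinophil genes, and eosinophil (5 of 5, median 4.74) and monocyte genes (8 of 8, median 4.64) were higher too. Over all genes compared, 3.41% were lower by at least 1 in SCI than in sham blood, and 13.9% were higher in SCI cord than in SCI blood. HPGDS, SLC18A2, LTC4S and CPA3 are on both the mediator and the mast cell list, so these counts overlap. The part of other cells in these whole-library ratios was not tested.

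Of the FcεRI complex and signalling genes, 2 of 12 were higher in sham than in naïve blood, FCER1A and MS4A2, while the gamma chain FCER1G was at 0.57 (0.50 to 0.65) and the kinase LYN at -0.69 (-0.79 to -0.60). These signalling genes are shared with many leukocytes. Over all genes compared in sham against naïve blood, 2.14% were higher by a log2 ratio of at least 1. Of 10 transcription factors, 4 were higher in sham than in naïve blood, GATA2 together with TAL1 at 2.44 (1.34 to 3.93), MITF at 1.68 (1.18 to 2.22) and GATA1 at 1.48 (0.65 to 2.44), the last of these from a level of 0.692 CPM in naïve blood.

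The pattern most like that of each gene, among 13661 genes with a UMI in at least 50 of the 17968 human blood barcodes, was in all cases that of another of the 10. The 10 were chosen with earlier results of these data known, so this closeness may in part be given by the choice. TPSAB1 was most like TPSB2 (Pearson r 0.91 of log-transformed UMIs per 10000), CTSG (0.87) and CPA3 (0.77), and CTSG was most like TPSAB1. HDC was most like MS4A2 (0.93), GATA2 (0.91) and MS4A3 (0.89). TCN1 was most like MS4A3 (0.89), and FCER1A most like MS4A2 (0.89). The 3 most similar genes of TPSAB1, TPSB2 and CTSG thus came from the tryptase side with CPA3, and those of MS4A3 and TCN1 included MS4A2 and HDC. The points share libraries and depth, and most barcodes have 0 UMIs of all these genes, so the correlations describe shared cells.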

How the data were processed

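Human CD45+ cells of 4 pooled samples were profiled by 3' scRNAseq. Using CellRanger 3.1.0 and a joint human (hg38) and mouse (mm10) reference, the authors produced and deposited UMI counts per gene and barcode without normalisation. The genes and lists were chosen with earlier results of these data known.

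Barcodes with over 50% human UMIs were kept with no further filter in the main analysis. Counts were summed per library, scaled without 105 ribosomal and mitochondrial genes, and compared as log2 ratios with 0.5 added counts over genes with at least 20 counts in both libraries together. Intervals were exact Poisson (levels), exact binomial (shares) and conditional binomial (ratios), at 95%. A share of 0 was given as a count over cells. For equal depth, cells were thinned to 1000 human UMIs, which left out 132, 38, 45 and 9 shallower cells across naïve, sham and SCI blood, then SCI cord. Scrublet scores marked the highest 0.8% per 1000 barcodes as doublets. A cell carried a list when at least 2 of its genes, those described here left out, had at least 2 UMIs each. Genes named in the text are the 10 genes, genes of lists of their pathways and cell types, and per gene the 3 genes with the highest correlation.

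The groups have 1 library each, none was tested against another, and cells never stood in for replicates. The calculations were tested on simulated data. Alternatives were another scaling (TMM), other totals, filters and thresholds. The tools were scanpy 1.11.5 with anndata 0.12.19, pandas 2.3.3, scipy 1.17.1, numpy 2.4.6 and matplotlib 3.10.9 in Python 3.11.15. TMM factors alone came from edgeR 4.0.16 in R 4.3.3.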

Additional observations from a re-analysis of the deposited data

How the results depend on the processing

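No paired analysis was possible because each condition is 1 library. The median log2 ratio of the 10 genes kept its direction under all 8 alternatives in the 4 comparisons, and stayed inside the interval of the reported value in 28 of 32 cases. As a mean of per-cell CPM it was 1.07 for sham against naïve blood and 0.58 for SCI against naïve blood. With the filter of 3 median absolute deviations and doublets removed it was -0.56 for SCI against sham blood. Without the 5 barcodes richest in these genes per library it was 1.70 for SCI cord against SCI blood, the only one of these values to differ by over 1.5 times from the reported 2.68. Of single genes, CPA3 in SCI against sham blood went past -1 under 4 of 8 alternatives, to -1.05 at the lowest, and 4 genes in place of 3 were past 1 in SCI against naïve blood under 3 of 8. TPSB2 in SCI against sham blood changed sign under 2 alternatives, from -0.01 to at most 0.01.

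The share of granule-gene cells depended on depth and threshold. Thinned to 1000 UMIs it was 0.608%, 1.28%, 0.593% and 3.88% across naïve, sham and SCI blood, then SCI cord, and with at least 4 of the 5 shared genes 0.968% in naïve and 1.72% in SCI blood. At that depth, tryptase-positive cells were 0.167%, 0.547%, 0.240% and 3.88% of human barcodes and tryptase-negative cells 0.441%, 0.730%, 0.353% and 0%, in the same order, alternatives chosen after seeing the data. From 1 tryptase UMI, 60.8% of granule-gene cells were positive in sham and 51.1% in SCI blood, and after thinning 100% in SCI cord. The share of tryptase-negative blood cells with CTSG was 0% without marked doublets and cells with T or B cell UMIs, an alternative chosen after seeing the data, as were those without 1 blood library. The other 15 of 16 such values for CTSG and for MS4A3 or TCN1 stayed inside the interval of the reported share. The 138 human barcodes of SCI cord limit every value given for it, and counting intervals do not cover the spread between animals.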

Other observations

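Mouse basophils could have been caught by the sort as well, and mouse barcodes were therefore read with the mouse counterparts of the 5 shared genes. Cells that met the same rule with the mouse genes numbered 0 of 1411 in naïve blood, 1 of 1990 in sham blood, 1 of 1230 in SCI blood and 0 of 93 in SCI cord. Both cells had UMIs of Mcpt8, a basophil protease of the mouse, at 6 and 10 UMIs, and neither had mouse tryptase UMIs. In the human barcodes, individual SCI cord cells reached 220 TPSAB1, 198 CTSG, 146 TCN1 and 105 CPA3 UMIs, against blood maxima over the 3 libraries of 76, 126, 97 and 33. The SCI cord cells with these maxima were deep, at 25426 UMIs (TPSAB1 and CTSG) and 20450 UMIs (TCN1 and CPA3). The blood cells had 7033, 7470, 6745 and 6196 UMIs in the order of the genes. As a share of the cell's UMIs, no maximum was higher in SCI cord than in blood.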
